A study of Mus musculus with 11 samples.

Results

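Fatty acids are the main fuel of the adult heart. The genes described here are 42 genes of fatty acid uptake and oxidation, listed by name and matched by symbol to the Ensembl genes of the count files, out of 25006 genes counted. All 42 were found, and all 42 passed edgeR's filter on low counts, which 14779 genes passed. They were measured in RNA from the left ventricle of 11 mice, 1 library per mouse. Naive control mice (M44 and M45, n = 2) and MI control mice (M006, M38 and M40, n = 3) are given in the genotype labels as Vegfc fl/fl, floxed at Vegfc with no Cre named, whereas the protocol text of the labels names LysMCre mice as the controls. Naive KO mice (M149, M150 and M34, n = 3) and MI KO mice (M35, M900 and M913, n = 3) are labelled Vegfc fl/fl ; LysMCre, the same floxed allele with Cre expressed from the lysozyme M gene of myeloid cells. MI was permanent ligation of the left coronary artery, infarcted left ventricle was taken 9 days later, and naive mice gave ventricle from the same region. Ages were not given in the sources used here.

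Library totals were 10824989 to 26782728 counts, and 3 counts corresponded to 0.101 to 0.363 CPM (the depth-scaled unit used throughout, after TMM), a floor that covers counting error only. Xist ranged over 0.624 to 11.8 CPM among 5 naive and 188 to 403 CPM among 6 MI libraries, and 4 Y-linked genes were higher in every naive library than in every MI library, so MI and sex cannot be told apart. Whole-tissue Vegfc was at 21.9 to 45.5 CPM in control libraries and 22.4 to 34.5 CPM in KO libraries, so it did not separate the genotypes. The library labelled naive KO M149 had Lyz2, the gene that carries the Cre insertion, at 4565 CPM, above both naive control libraries (2121 and 2282 CPM). Lyz2 was at 72.5 and 245 CPM in M150 and M34 and at 1392, 203 and 12.4 CPM in M35, M900 and M913. In M006, M38 and M40 it was at 5380, 4573 and 4538 CPM. M149 was kept as KO by its label, and whether that label is right was not tested. In bulk tissue, fewer cells of a type and less RNA per cell cannot be told apart. The 14 cardiomyocyte markers summed to 122385 to 160310.0 CPM in naive libraries, to 18779.7, 25490.0 and 4192 CPM in M006, M38 and M40, respectively, and to 39348, 9009 and 18953 CPM in M35, M900 and M913. Fibroblast markers summed to 4828 to 6729.9 CPM in naive and 29965 to 47562 CPM in MI libraries, macrophage markers to 1699 to 2516 and 2428 to 6257 CPM, and endothelial markers to 1218 to 1703 and 652 to 1391 CPM. The part of these marker changes in the results that follow was not tested.

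In the myocardium, lipoprotein lipase on the capillary wall frees fatty acids from circulating triglyceride, transport and binding proteins bring them into the cardiomyocyte, and acyl-CoA synthetases trap them as acyl-CoA. The carnitine shuttle carries long acyl chains into mitochondria, where a spiral of dehydrogenation, hydration, a second dehydrogenation and thiolysis releases acetyl-CoA and passes electrons to the respiratory chain. Genes of this pathway are highly expressed in heart, and many of them are known targets of the nuclear receptors PPAR alpha and ERR alpha.

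In control mice, 36 of the 42 genes were lower and 2 were higher in MI than in naive hearts at an adjusted p under 0.05 (quasi-likelihood test of edgeR, adjusted by the Benjamini-Hochberg method across all 14779 genes). Of all 14779 genes, 50.4% passed this test, 24.1% lower and 26.3% higher. The median log2 fold change was -2.69 over the 42 genes and 0.13 over all genes tested. In KO mice, 37 were lower and 2 higher, against 57.6% of all genes called, 27.7% lower and 30.0% higher, and the medians were -2.20 and 0.10. These directions are those with TMM scaling. On the cardiomyocyte marker scale described further on, 0 of the 42 genes were called lower. On that scale 0.0677% of all genes were called lower in control mice and 0.108% in KO mice. With TMM the same 38 of the 42 genes were called in both genotypes and in the same direction, 36 lower and 2 higher. The share of all genes called in both was not computed. Lipe was called in KO mice alone, and Slc27a1, Acsl4 and Acsl5 in neither genotype. Together the 42 genes held 2.68 to 3.53% of the scaled counts in naive libraries, 0.648, 0.663 and 0.289% in M006, M38 and M40 and 0.832, 0.351 and 0.526% in M35, M900 and M913. All MI libraries lay below all naive libraries for 35 of the 42 genes and above them for 2, and the share of all genes that did so was not computed. Without M40, 39 of the 42 genes were called in control mice, and without M149, 40 in KO mice. The shares of all genes called in these fits are not given here, so the counts say nothing particular to the 42 genes. The groups did not overlap for 41 genes in control mice, where 72.1% of all genes did not overlap, and for 38 genes in KO mice, where 64.3% did not.

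**Figure D1:**
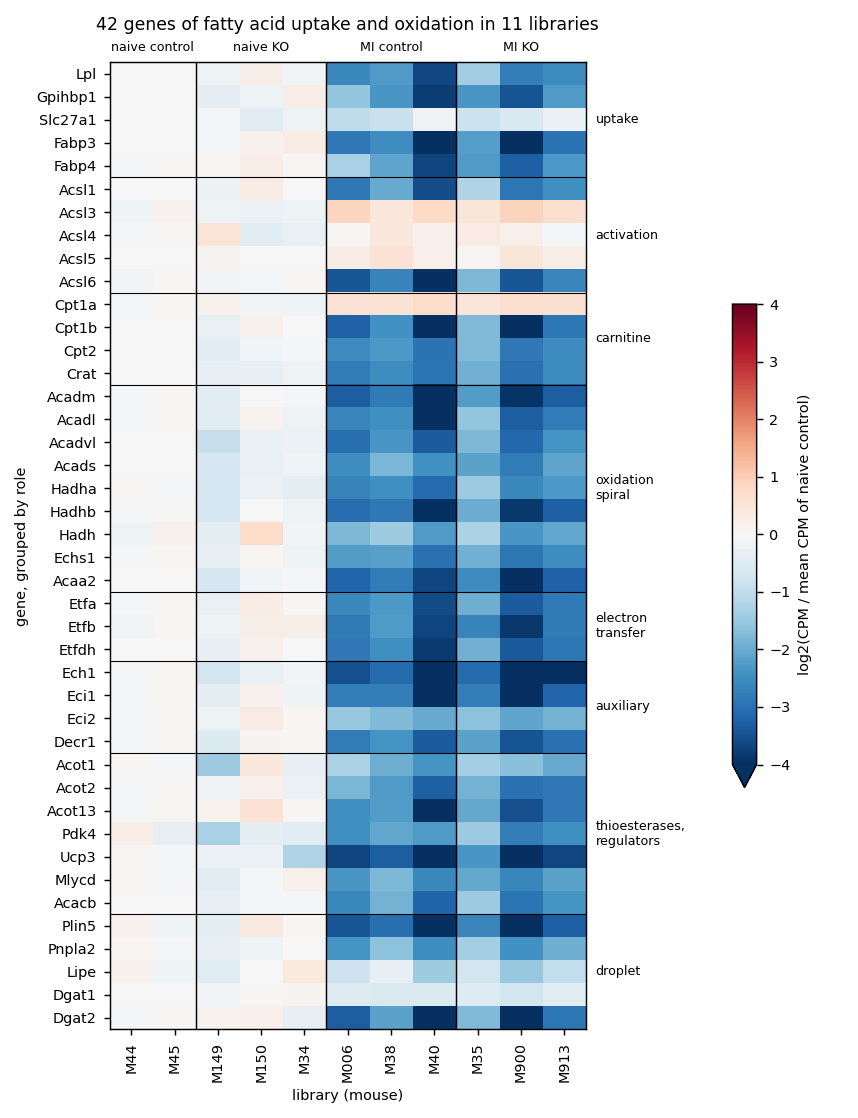
Each row is 1 of the 42 genes, grouped by role, and each column 1 library; colour gives log2 of CPM over the mean CPM of the 2 naive control libraries, and values under -4 are drawn in the darkest blue. The 6 MI columns are blue for most genes, with M40 and M900 darkest and M35 palest, while Acsl3 and Cpt1a are red in all 6.

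Values of a gene are given below in CPM for M44 and M45, for M149, M150 and M34, for M006, M38 and M40 and for M35, M900 and M913, in this order, and ± marks the standard error of a log2 fold change in control and then KO mice. Both genes that act at the capillary wall were lower after MI. Lpl (ENSMUSG00000015568, chromosome 8, 68880491 to 68907448) encodes lipoprotein lipase. It was at 3618 and 3753 CPM in naive control, 3228, 4294 and 3439 CPM in naive KO, 621, 765 and 295 CPM in MI control and 1417, 537 and 646 CPM in MI KO libraries. Every MI library lay below every naive library, by a log2 fold change of -2.72 ± 0.47 in control mice and -2.08 ± 0.44 in KO mice, with adjusted p = 0.0013 and 0.00248 by edgeR with Benjamini-Hochberg adjustment. Gpihbp1, which anchors the lipase to capillary endothelium, fell by 2.31 ± 0.52 and 2.51 ± 0.49 on the log2 scale in control and KO mice, from 351 to 539 CPM in naive libraries to 32.5 to 149.5 CPM after MI.

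Of the binding proteins, Fabp3, the heart-type fatty acid binding protein, had the highest level per kb of exon of the 42 genes in all 4 groups, though with the longest transcript as the length Ech1 was above it in naive control (3028 against 2390.1 CPM per kb) and Fabp4 in MI control libraries (289.1 against 273 CPM per kb). Fabp3 (ENSMUSG00000028773, chromosome 4, 130308595 to 130315463) was at 1929 and 2005 CPM in naive control, 1859, 2209.6 and 2417 CPM in naive KO, 269.7, 353 and 52.2 CPM in MI control and 426, 93.5 and 251 CPM in MI KO libraries. Its log2 fold change was -3.13 ± 0.71 in control mice and -3.07 ± 0.68 in KO mice, and adjusted p was 0.00501 and 0.00327 by edgeR with Benjamini-Hochberg adjustment. The groups did not overlap, and the lowest MI values, in M40 and M900, were those of the libraries lowest in cardiomyocyte markers. Fabp4, found in adipocytes, macrophages and capillary endothelium, was at 5017 and 5248 CPM in naive control, 5304, 6111 and 5458 CPM in naive KO, 2079, 1191 and 399.8 CPM in MI control and 1059, 534 and 1036 CPM in MI KO libraries. Its order among MI libraries was different, with M006 highest. Fabp4 fell by 2.07 ± 0.55 and 2.68 ± 0.53 on the log2 scale (adjusted p = 0.0104 and 0.00166 by edgeR with Benjamini-Hochberg adjustment), and per kb of exon it stood at 0.414 to 0.523 of the Fabp3 level in naive libraries and at 0.456 to 1.41 after MI. Adipocyte markers summed over 8 genes to 0.363 to 2.08 CPM in naive libraries, 1.51 to 4.82 CPM in the MI libraries other than M40 and 21.02 CPM in M40, where Cfd was at 10.5 and Adipoq at 7.37 CPM. Of the 3 of these markers that were tested, Cfd was called higher after MI in control mice (adjusted p = 0.0147 by edgeR with Benjamini-Hochberg adjustment). In KO mice 0 of the 3 were called. Cfd was at 0.0892 and 0.272 CPM in M44 and M45, close to the floor of 3 counts, so no fold is given. It was at 2.31, 1.01 and 10.5 CPM in M006, M38 and M40. The part of these markers in the Fabp4 values was not tested. Fabp3 shares 29.2% of its 50-base stretches with its pseudogene Fabp3-ps1, which was not counted. Slc27a1, a long-chain fatty acid transporter with acyl-CoA synthetase activity, was the uptake gene that did not pass the test. It was at 69.4 and 71.9 CPM in naive control, 67.0, 51.2 and 61.4 CPM in naive KO, 34.9, 38.2 and 63.5 CPM in MI control and 39.1, 46.5 and 59.0 CPM in MI KO libraries, with a log2 fold change of -0.63 ± 0.26 in control mice and -0.31 ± 0.23 in KO mice (adjusted p = 0.0607 and 0.268 by edgeR with Benjamini-Hochberg adjustment). M40, lowest for the other 4 uptake genes, was the highest of the MI libraries for Slc27a1, and without M40 it passed the test in control mice (adjusted p = 0.00523 by the same test).

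The 5 acyl-CoA synthetases went different ways. Acsl1, the main long-chain isoform of the heart, was at 399.8 and 406 CPM in naive control, 341, 492 and 403 CPM in naive KO, 55.8, 98.8 and 34.5 CPM in MI control and 175, 53.8 and 74.2 CPM in MI KO libraries, a log2 fold change of -2.68 ± 0.50 in control mice and -2.03 ± 0.46 in KO mice (adjusted p = 0.00185 and 0.00385 by edgeR with Benjamini-Hochberg adjustment). Acsl6, an isoform known best from brain, was low in naive libraries at 17.6 to 20.5 CPM and lower after MI, at 1.78, 3.04 and 0.550 CPM in MI control and 5.52, 1.80 and 3.11 CPM in MI KO libraries. It fell by 3.41 ± 0.56 and 2.43 ± 0.51 on the log2 scale in control and KO mice. Acsl3, an isoform of the endoplasmic reticulum and lipid droplets, rose instead. Its level was 10.9 and 13.9 CPM in naive control, 10.8, 10.5 and 10.8 CPM in naive KO, 22.2, 16.6 and 21.3 CPM in MI control and 17.3, 22.8 and 19.1 CPM in MI KO libraries. All 6 MI libraries lay above all 5 naive ones, by a log2 fold change of 0.69 ± 0.19 in control mice and 0.88 ± 0.17 in KO mice (adjusted p = 0.0116 and 0.00139 by edgeR with Benjamini-Hochberg adjustment). In control mice this call was lost without the naive library M44 (adjusted p = 0.116 by the same test). Acsl4, which prefers arachidonic acid and lies on the X chromosome, had log2 fold changes of 0.24 and 0.17, and Acsl5 had 0.37 and 0.25. Neither passed the test (adjusted p = 0.468 and 0.555 for Acsl4 and 0.0732 and 0.149 for Acsl5 by edgeR with Benjamini-Hochberg adjustment), although Acsl4 passed in KO mice without M149, the naive library where it was highest (adjusted p = 0.0178). Their values overlapped between naive and MI libraries, at 20.5 to 40.2 and 27.1 to 37.2 CPM for Acsl4 and 117 to 126 and 125 to 178 CPM for Acsl5. Per kb of exon, Acsl1 made up 46.3 to 59.2% of the 5 synthetases in naive libraries and 7.77 to 31.2% after MI, when Acsl5 held 48.3 to 67.2% against 30.7 to 37.0% before. By the longest transcript Acsl1 made up 58.2 to 69.8% and 12.2 to 42.6%, and in M35 it was then above Acsl5 (40.9%).

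The CPT1 isoenzymes of the carnitine shuttle also moved in opposite directions. CPT1 on the outer mitochondrial membrane joins the acyl group to carnitine and is the step that malonyl-CoA inhibits. Cpt1b (ENSMUSG00000078937, chromosome 15, 89416405 to 89425863) encodes the muscle isoform and Cpt1a (ENSMUSG00000024900, chromosome 19, 3322334 to 3385733) the isoform best known from liver. Cpt1b was at 543 and 546 CPM in naive control, 446, 618 and 543 CPM in naive KO, 58.2, 101 and 15.1 CPM in MI control and 162, 33.8 and 73.8 CPM in MI KO libraries. Cpt1a was at 62.7 and 69.1 CPM in naive control, 75.0, 61.4 and 57.9 CPM in naive KO, 99.3, 97.8 and 109 CPM in MI control and 93.2, 102 and 101 CPM in MI KO libraries. Cpt1b was thus lower and Cpt1a higher in every MI library than in every naive library. The log2 fold change of Cpt1b was -3.23 ± 0.71 in control mice and -2.58 ± 0.66 in KO mice (adjusted p = 0.00424 and 0.00715 by edgeR with Benjamini-Hochberg adjustment). That of Cpt1a was 0.63 ± 0.14 in control mice and 0.61 ± 0.12 in KO mice (adjusted p = 0.00448 and 0.00204 by edgeR with Benjamini-Hochberg adjustment). For Cpt1a in control mice the call was lost without M44 (adjusted p = 0.0514 by the same test). Per kb of exon, Cpt1b stood at 13.5 to 22.8 times Cpt1a in the naive libraries, and at 8.87 to 15.02 times with the longest transcript as the length. After MI this ratio was 1.33, 2.34 and 0.316 in M006, M38 and M40 and 3.93, 0.750 and 1.65 in M35, M900 and M913, so Cpt1a was the higher of the pair in M40 and M900, and by the longest transcript also in M006, where the ratio was 0.875. Cpt1a differed little among the MI libraries, whose highest value was 1.16 times the lowest, whereas for Cpt1b that ratio was 10.7. Cpt1b shares 78.6% of its 50-base stretches with Gm44502, a gene annotated on the same strand that the count files do not list. Cpt2, which reforms acyl-CoA inside the mitochondrion, fell by 2.56 ± 0.30 and 2.10 ± 0.28, and Crat, which buffers acetyl groups as acetylcarnitine, by 2.73 ± 0.27 and 2.12 ± 0.25 on the log2 scale in control and KO mice. With adjusted p = 0.000159 in control mice by edgeR with Benjamini-Hochberg adjustment, Crat had the smallest value of the 42 genes there.

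**Figure D2:**
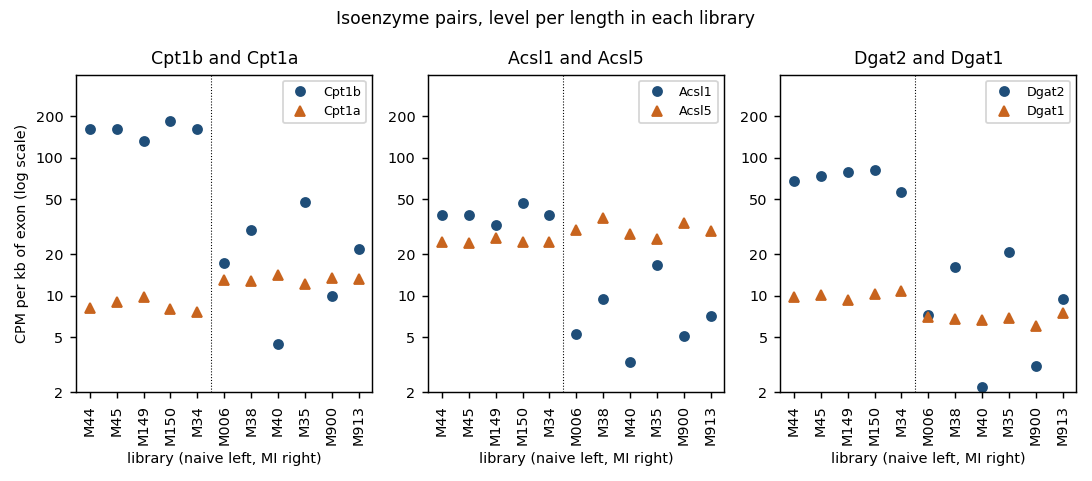
Levels per length, in CPM per kb of exon on a log axis, of 3 isoenzyme pairs in each library, with the 5 naive libraries left of the dotted line and the 6 MI libraries right of it. Circles (Cpt1b, Acsl1, Dgat2) drop after MI and spread out, and triangles (Cpt1a, Acsl5, Dgat1) differ less among the libraries.

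All 9 genes of the oxidation spiral were lower after MI in both genotypes, with log2 fold changes from -3.36 (Acadm) to -1.80 (Hadh) in control mice and from -2.85 (Acaa2) to -1.61 (Hadha) in KO mice. The first step is taken by acyl-CoA dehydrogenases of different chain lengths. Acadm, the medium-chain enzyme, was at 1509.7 and 1642 CPM in naive control, 1155, 1552 and 1531 CPM in naive KO, 159.6, 223 and 79.4 CPM in MI control and 334, 103 and 162 CPM in MI KO libraries. The lowest naive value was above the highest MI value, and the fold was 10.2 lower in control and 7.09 lower in KO mice (adjusted p = 0.000646 and 0.00065 by edgeR with Benjamini-Hochberg adjustment). The long-chain enzyme Acadl fell by 2.90 ± 0.53 and 2.22 ± 0.49, the very long-chain enzyme Acadvl by 2.83 ± 0.39 and 1.89 ± 0.35 and the short-chain enzyme Acads by 2.21 ± 0.26 and 1.95 ± 0.24 on the log2 scale in control and KO mice. Acads fell least of the 4 in control mice, and none of their naive and MI values overlapped. A stretch of 377 exonic bases of Acadvl is shared with Dvl2 on the opposite strand, and the strand setting of the counting is not given in the sources used here.

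Hadha and Hadhb encode the alpha and beta subunits of the mitochondrial trifunctional protein, which carries out the later steps on long chains. They lie head to head on chromosome 5, with the RefSeq starts 273 bases apart, so their promoter windows share 228 bases. The window of Hadha from RefSeq (GRCm38.p6, chr5:30154931-30155230, minus strand, 250 bases before to 50 after the start) is shown because both genes fell, with the bases that also lie in the Hadhb window in capitals.
Hadha promoter: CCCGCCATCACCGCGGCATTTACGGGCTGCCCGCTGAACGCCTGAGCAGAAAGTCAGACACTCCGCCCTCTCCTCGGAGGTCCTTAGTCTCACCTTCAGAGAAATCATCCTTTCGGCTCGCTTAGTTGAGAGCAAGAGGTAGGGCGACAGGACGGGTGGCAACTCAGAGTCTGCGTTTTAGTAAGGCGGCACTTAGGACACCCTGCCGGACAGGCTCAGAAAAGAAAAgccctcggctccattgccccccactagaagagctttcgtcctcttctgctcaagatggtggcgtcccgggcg
Hadha was at 1286 and 1193 CPM in naive control, 758, 1048 and 972 CPM in naive KO, 196, 227 and 147 CPM in MI control and 449, 206 and 253 CPM in MI KO libraries. Hadhb was at 300.0 and 320.3 CPM in naive control, 191, 306 and 268 CPM in naive KO, 37.8, 42.9 and 13.9 CPM in MI control and 78.9, 21.2 and 32.6 CPM in MI KO libraries. Both were lower in every MI library than in every naive library, and for both genes M40 was the lowest and M35 the highest MI library. Hadha fell by 2.71 ± 0.33 and 1.61 ± 0.30 and Hadhb by 3.30 ± 0.56 and 2.53 ± 0.51 on the log2 scale (adjusted p = 0.000286 and 0.00119 for Hadha and 0.00113 and 0.00203 for Hadhb by edgeR with Benjamini-Hochberg adjustment). Per kb of exon, Hadha stood at 2.59 to 3.24 times Hadhb in naive libraries and at 3.91 to 8.004 times in MI libraries, and these ranges did not overlap. With the longest transcript as the length the ranges were 3.74 to 4.68 and 5.66 to 11.6. Hadhb shares 19.7% of its 50-base stretches with other annotated transcripts, most of them of Gm13910. Hadh, the dehydrogenase for shorter chains, fell least of the 9 in control mice, from 320.3 to 702 CPM in naive to 83.7 to 176 CPM in MI libraries. Echs1, the short-chain hydratase, fell by 2.43 ± 0.31 and 2.25 ± 0.29, and Acaa2, the mitochondrial thiolase, by 3.17 ± 0.40 and 2.85 ± 0.38 on the log2 scale.

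Acyl-CoA dehydrogenases hand their electrons to the flavoprotein ETF, made of Etfa and Etfb, and from there to the ubiquinone reductase Etfdh. All 3 genes fell, Etfa by 2.72 ± 0.43 and 2.63 ± 0.41, Etfb by 2.81 ± 0.42 and 3.13 ± 0.40 and Etfdh by 2.94 ± 0.45 and 2.57 ± 0.42 on the log2 scale in control and KO mice (adjusted p from 0.000636 to 0.000844 and from 0.000164 to 0.000562 by edgeR with Benjamini-Hochberg adjustment). Etfa was at 1030.3 and 1088 CPM in naive control, 870.1, 1304 and 1094 CPM in naive KO, 178, 216 and 89.1 CPM in MI control and 274, 105 and 148 CPM in MI KO libraries. No value of the 3 genes overlapped between naive and MI libraries. Of Etfb, 44.8% of the 50-base stretches also lie in other annotated transcripts, most of them in Gm45233, which the count files do not list.

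Auxiliary enzymes reshape the double bonds of unsaturated fatty acids so that these can enter the spiral. Ech1, the dienoyl-CoA isomerase, was second to Fabp3 in level per kb of exon in naive control hearts and first by the longest transcript. It was at 3628 and 4045 CPM in naive control, 2292, 3109 and 3556 CPM in naive KO, 338, 451 and 166 CPM in MI control and 457, 145 and 242 CPM in MI KO libraries. It was 12.1-fold lower after MI in control mice, a log2 fold change of -3.59 ± 0.51 in control mice and -3.41 ± 0.49 in KO mice (adjusted p = 0.000523 and 0.000275 by edgeR with Benjamini-Hochberg adjustment). The enoyl-CoA isomerase Eci1 fell by 3.06 ± 0.42 and 3.14 ± 0.40 and the dienoyl-CoA reductase Decr1 by 2.79 ± 0.39 and 2.67 ± 0.37 on the log2 scale in control and KO mice. Eci2, an isomerase found in both mitochondria and peroxisomes, fell by less, 1.75 ± 0.21 and 1.96 ± 0.20, from 293 to 429 CPM in naive to 78.7 to 119 CPM in MI libraries, and in KO mice it had the smallest adjusted p of the 42 genes (5.78e-05 by edgeR with Benjamini-Hochberg adjustment).

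All 7 thioesterase and regulator genes were lower in both genotypes. Ucp3, a mitochondrial carrier induced by fatty acids, had the largest fall of the 42 genes in control mice. It was at 19.2 and 17.9 CPM in naive control, 15.9, 15.7 and 7.97 CPM in naive KO, 1.45, 1.89 and 0.624 CPM in MI control and 3.702, 0.629 and 1.49 CPM in MI KO libraries, a log2 fold change of -3.80 ± 0.63 in control mice and -2.79 ± 0.58 in KO mice (adjusted p = 0.00103 and 0.00236 by edgeR with Benjamini-Hochberg adjustment). M40 and M900 were the lowest, at under 1 CPM. Pdk4, the kinase that turns pyruvate dehydrogenase off when fatty acids are burned, was at 106 and 70.0 CPM in naive control, 35.9, 68.1 and 64.9 CPM in naive KO, 16.2, 20.6 and 18.3 CPM in MI control and 32.3, 13.0 and 16.1 CPM in MI KO libraries. Its naive values were uneven, with M44 highest and M149 lowest, but all lay above the MI values. It fell by 2.25 ± 0.38 and 1.46 ± 0.35 on the log2 scale (adjusted p = 0.00113 and 0.00496 by edgeR with Benjamini-Hochberg adjustment). Mlycd, which degrades malonyl-CoA, and Acacb, which makes it at the mitochondrial surface, fell together, Mlycd by 2.20 ± 0.25 and 2.19 ± 0.24 and Acacb by 2.45 ± 0.41 and 1.98 ± 0.38 on the log2 scale. Among the thioesterases, which release free fatty acid from acyl-CoA, Acot13 had the highest level per length by both lengths and was at 1040.3 to 1623 CPM in naive and 64.2 to 265 CPM in MI libraries, and fell by 2.72 ± 0.52 and 2.95 ± 0.49. The mitochondrial Acot2 fell by 2.36 ± 0.39 and 2.45 ± 0.37. Its cytosolic neighbour Acot1 was at 2.55 to 9.32 CPM in naive and 1.36 to 2.85 CPM in MI libraries, which overlapped. Acot1 shares 13.6% of its 50-base stretches with Acot2, and Acot2 shares 24.5% of its own with Acot1, which makes the counts of both uncertain. The Acot1 calls (log2 fold changes -1.80 and -1.40, adjusted p = 0.0108 and 0.0209 by edgeR with Benjamini-Hochberg adjustment) were lost without M44 in control mice (adjusted p = 0.0542 by the same test) and without M150, M900 or M913 in KO mice (adjusted p = 0.109, 0.0545 and 0.0663).

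Lipid droplets store fatty acids between uptake and oxidation. Plin5, the perilipin that ties droplets to mitochondria in oxidative tissue, was at 146 and 115 CPM in naive control, 100.01, 169 and 137 CPM in naive KO, 12.2, 16.3 and 1.28 CPM in MI control and 21.1, 4.15 and 13.7 CPM in MI KO libraries. It spread most among the MI libraries, where the highest value was 16.4 times the lowest. Its log2 fold change was -3.72 ± 0.82 in control mice and -3.39 ± 0.77 in KO mice (adjusted p = 0.00415 and 0.00384 by edgeR with Benjamini-Hochberg adjustment). Pnpla2, the first lipase of droplet triglyceride, fell by 2.11 ± 0.31 and 1.69 ± 0.29 on the log2 scale. Lipe, hormone-sensitive lipase, was at 22.1 to 40.2 CPM in naive and 10.8 to 24.7 CPM in MI libraries, with a log2 fold change of -0.79 ± 0.34 in control mice and -1.06 ± 0.31 in KO mice (adjusted p = 0.0748 and 0.0143 by edgeR with Benjamini-Hochberg adjustment). The difference of its response between the genotypes was -0.27 on the log2 scale (adjusted p = 0.895 for the interaction by edgeR, Benjamini-Hochberg method). The Lipe call in KO mice was lost without M34 or M900 (adjusted p = 0.0609 and 0.0611 by edgeR) and that in control mice was gained without M38 (adjusted p = 0.0191). A stretch of 453 exonic bases of Lipe overlaps an antisense gene. Dgat1 and Dgat2 catalyse the last step of triglyceride synthesis. Dgat2 was at 210.2 and 226 CPM in naive control, 242, 250.4 and 174 CPM in naive KO, 22.3, 49.7 and 6.71 CPM in MI control and 63.9, 9.48 and 29.2 CPM in MI KO libraries. Dgat1 was at 28.3 to 32.8 CPM in naive and 18.4 to 22.9 CPM in MI libraries. Both were lower after MI, Dgat2 by 3.05 ± 0.78 and 2.70 ± 0.73 and Dgat1 by 0.56 ± 0.13 and 0.57 ± 0.12 on the log2 scale (adjusted p = 0.00846 and 0.00922 for Dgat2 and 0.00525 and 0.00203 for Dgat1 by edgeR with Benjamini-Hochberg adjustment). Per kb of exon, Dgat2 stood at 5.25 to 8.47 times Dgat1 in naive libraries and at 0.326 to 2.99 times after MI, below 1 in M40 and M900 and, by the longest transcript, also in M006 (0.877).

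**Figure D3:**
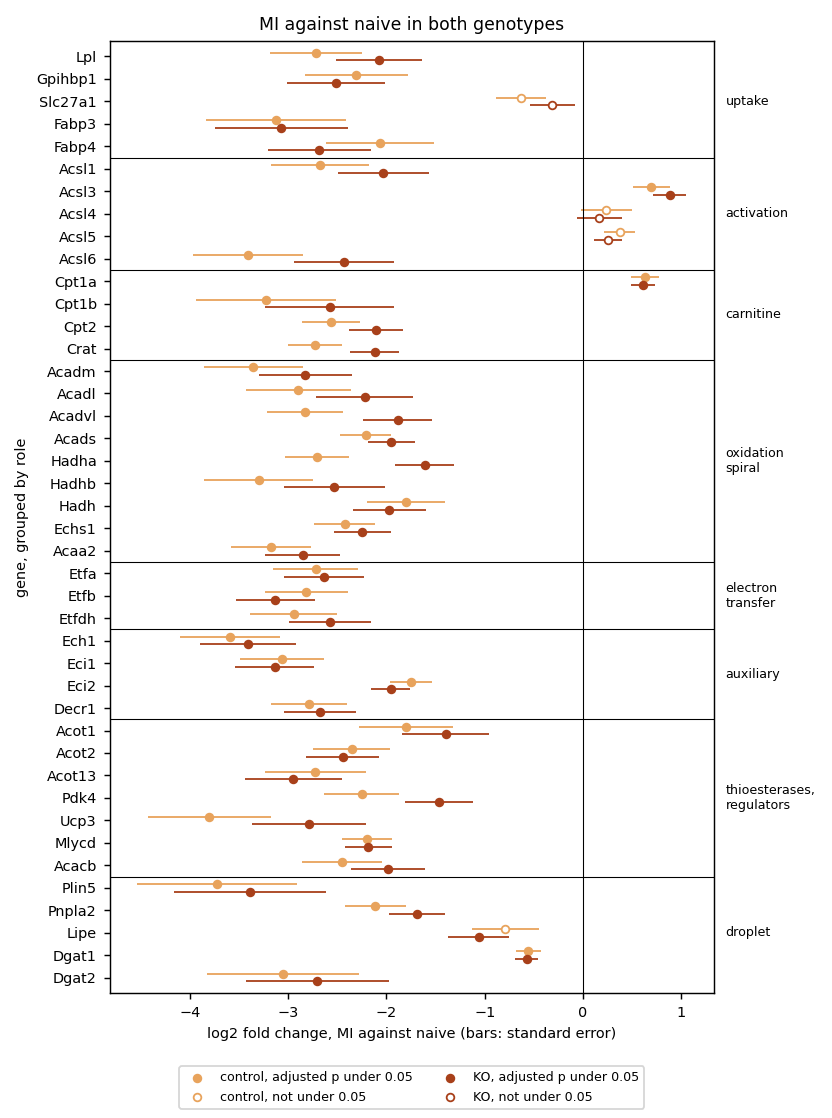
Log2 fold changes of MI against naive with standard errors for the 42 genes in control (light) and KO (dark) mice, filled where the adjusted p was under 0.05. Most points lie between -1.5 and -4, and Acsl3 and Cpt1a are the filled points above 0.

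Promoter windows of 32 of the 42 genes were in RefSeq (GRCm38.p6, 250 bases before to 50 after each start). The letters AAGGTCA, the core that ERR receptors bind, were searched on both strands and were found in 3 of the 32 genes (9.38%), Acsl6, Acadm and Acacb, and in 5.38% of the 27025 genes with a window. The longer TCAAGGTCA, which contains the core, was in Acsl6 alone and in 0.466% of all genes. A pair of AGGTCA 1 base apart, the form PPAR receptors bind, was in none of the 32 and in 0.0481% of all genes. A window of Acadm (chr3:153944594-153944893, minus strand) and one of Acsl6 (chr11:54303574-54303873, plus strand) are shown as examples. The core, here on the opposite strand, is in capitals. This Acsl6 window has the core in 2 places, and the Acsl6 windows that begin at 54303954 and 54314653 have none. Both genes fell after MI, as did Acacb, whose window is not shown, and most of the genes without the core.
Acadm promoter: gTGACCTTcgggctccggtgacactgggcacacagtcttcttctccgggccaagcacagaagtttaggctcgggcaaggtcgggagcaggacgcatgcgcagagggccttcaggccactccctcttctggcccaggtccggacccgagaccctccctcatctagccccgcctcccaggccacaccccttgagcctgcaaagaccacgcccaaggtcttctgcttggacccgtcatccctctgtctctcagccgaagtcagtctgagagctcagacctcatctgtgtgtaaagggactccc
Acsl6 promoter: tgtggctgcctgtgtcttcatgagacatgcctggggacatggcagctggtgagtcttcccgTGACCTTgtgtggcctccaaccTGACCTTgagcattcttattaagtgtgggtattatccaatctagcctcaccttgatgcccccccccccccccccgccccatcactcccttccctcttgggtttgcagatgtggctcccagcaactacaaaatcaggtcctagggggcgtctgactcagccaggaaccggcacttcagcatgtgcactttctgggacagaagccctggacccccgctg
A match is a description of these letters and not evidence of binding.

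Beyond the 42 genes, a list of 50 other genes of fatty acid handling was examined, of which 48 passed the filter on low counts. In control mice 28 of them were lower and 5 higher after MI, with a median log2 fold change of -0.68. In KO mice 29 were lower and 8 higher, with a median of -0.62. Of all genes tested, 24.1% were lower and 26.3% higher in control mice, and 27.7% and 30.0% in KO mice. Cd36, the main fatty acid translocase, was at 2718 and 2659 CPM in naive control, 2488, 2585 and 2726 CPM in naive KO, 543, 657 and 263 CPM in MI control and 819, 376 and 466 CPM in MI KO libraries. It fell by 2.46 ± 0.40 and 2.23 ± 0.38 on the log2 scale. Slc25a20, the carnitine-acylcarnitine translocase that stands between CPT1 and CPT2, fell by 2.54 ± 0.33 and 2.17 ± 0.30, and Cidea, a droplet protein, by 2.55 ± 0.64 and 2.29 ± 0.60. These 3 genes had the lowest fold changes of the list in control mice. Ucp2, an uncoupling protein found in immune cells, rose by 1.81 ± 0.32 and 1.75 ± 0.28 while its relative Ucp3 fell, from 100.5 to 138 CPM in naive to 285 to 592 CPM in MI libraries. Slc27a3, of the same family as Slc27a1, rose by 2.83 ± 0.37 and 2.12 ± 0.31. Eci3 was also called higher, but it was at 0 CPM in both naive control libraries and at 0.304 to 0.797 CPM after MI, close to the floor of 3 counts, so no fold is given. For the named genes other than Eci3, adjusted p-values ran from 0.000348 to 0.00827 in control mice (edgeR with Benjamini-Hochberg adjustment).

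The 42 genes were next read against the cardiomyocyte markers, since both fell. All 14 markers were called lower in control and 13 of 14 in KO mice, where 24.1% and 27.7% of all genes were. Their median log2 fold changes were -3.06 and -2.59. Summed over the 42 genes, the level was 26755 to 35308 CPM in naive libraries, 6483, 6633 and 2890.3 CPM in MI control and 8315, 3512 and 5259 CPM in MI KO libraries. Per 100 CPM of the markers, it was 21.9 to 23.6 CPM in naive libraries, 34.5, 26.0 and 68.9 CPM in MI control and 21.1, 39.0 and 27.7 CPM in MI KO libraries. The ratio was thus just below the naive range in M35 and highest in M40, the library with the least marker RNA. M40 was the lowest of the 6 MI libraries for 24 of the 42 genes and M900 for 13, and M35 was the highest for 27.

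**Figure D4:**
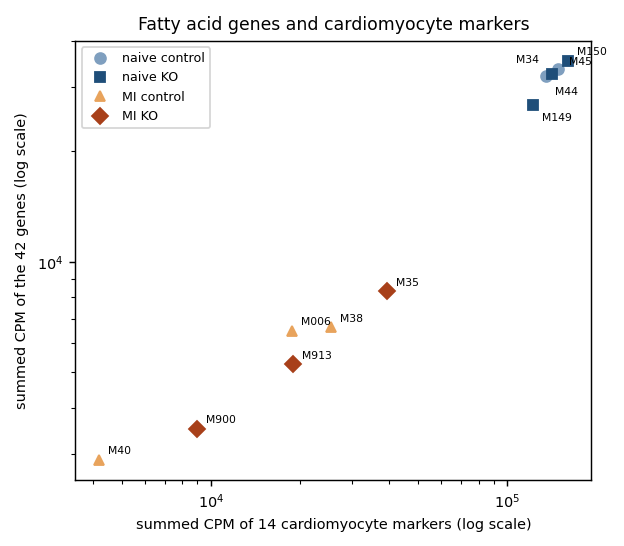
Summed CPM of the 42 genes against summed CPM of 14 cardiomyocyte markers, both on log axes, 1 point per library. The 5 naive libraries cluster at the top right, and the MI libraries of both genotypes fall along 1 band from M35 down to M40.

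Each library was then scaled to its summed counts of these markers in place of TMM. On this scale 0.0677% of all genes in control and 0.108% in KO mice were lower after MI, and 0 of the 42 genes were. In control mice 8 were higher, Slc27a1, Acsl3, Acsl4, Acsl5, Cpt1a, Eci2, Lipe and Dgat1, where 90.5% of all genes were higher on this scale and the median of all genes was 4.09. In KO mice 7 of the 8 were called again, without Eci2, where 85.4% of all genes were higher and the median of all genes was 3.24. The median of the 42 genes on this scale was 1.03 in control and 0.70 in KO mice, and 0.28 in control mice without M40. Relative to the markers, Cpt1a rose by 4.65 (standard error 1.15) and Dgat1 by 3.39 (standard error 1.08) on the log2 scale in control mice. For Cpt1b the value was -0.11 (standard error 0.91), for Fabp3 -0.03 (standard error 0.88) and for Acadm 0.12 (standard error 0.90), and adjusted p was 0.908, 0.971 and 0.899 by edgeR on this scale with Benjamini-Hochberg adjustment. Standard errors on this scale ran from 0.87 to 1.17 in control mice, against 0.13 to 0.82 with TMM.

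Myeloid loss of Vegfc was compared with control among the MI hearts. None of the 42 genes passed the test, 0% of all genes did, and 1 of the 42 had an unadjusted p under 0.05, as did 1173 of all 14779 genes (edgeR's quasi-likelihood test). The DESeq2 Wald test called 50 genes, none of them among the 42. The median log2 fold change of KO against control was 0.10 over the 42 genes, and it ran from -0.18 without M35 to 0.36 without M900. The gene with the unadjusted p under 0.05 was Hadha, whose values in MI control libraries (196, 227 and 147 CPM) overlapped those in MI KO libraries (449, 206 and 253 CPM). Its log2 fold change was 0.67 (95% interval 0.03 to 1.32, adjusted p = 0.626 by edgeR with Benjamini-Hochberg adjustment). In none of the 42 genes did all 3 KO libraries lie on 1 side of all 3 control libraries, where 12.1% of all genes had such groups. How far the data limit a difference varied from gene to gene. The interval of Dgat1 ran from -0.25 to 0.26, that of Cpt1a from -0.32 to 0.23 and that of Acsl3 from -0.38 to 0.34, while those of Plin5 and Cpt1b ran from -1.22 to 1.98 and from -0.76 to 2.01. A difference of 2-fold in either direction lay outside the interval for 20 of the 42 genes, and inside it in at least 1 direction for the rest. The fit takes the spread of a gene from naive and MI libraries together. Where MI libraries spread more, as for Plin5 (highest over lowest 16.4, against 1.69 in naive), these intervals can be too narrow. Where they spread less, as for Acsl4 (1.37 against 1.97), the intervals can be too wide. Fabp4 had the lowest value of the 42, -0.48 (95% interval -1.58 to 0.62), and it was 0.14 without M006. Scaled to the cardiomyocyte markers, 0 of the 42 genes were called, as were 0.115% of all genes. The median of the 42 genes was then -0.66, against -0.79 over all genes tested, and it became 0.14 without M40.

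**Figure D5:**
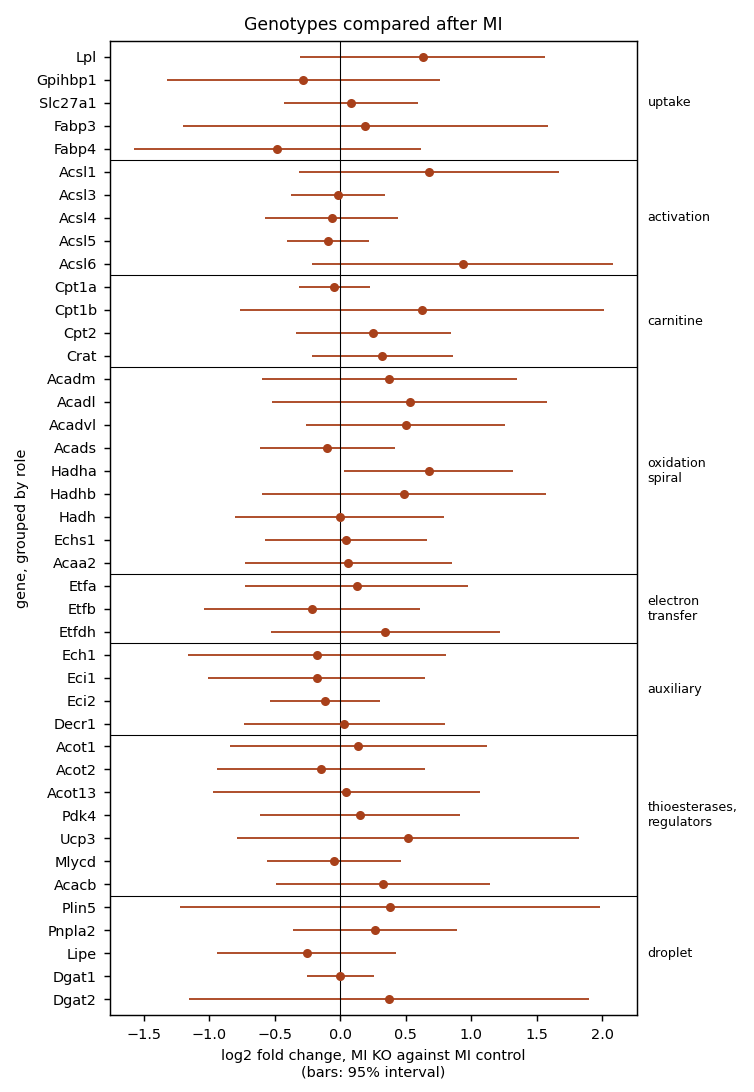
Log2 fold changes of MI KO against MI control hearts (points) with 95% intervals (bars) for the 42 genes, grouped by role. Every interval but that of Hadha holds 0, and the widths run from Dgat1, the narrowest, to Plin5, the widest.

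Among the naive hearts, 0 of the 42 genes were called between KO and control mice, as for 0% of all genes (edgeR's quasi-likelihood test). An unadjusted p under 0.05 was found for 0 of the 42 and for 499 of all genes, and the DESeq2 Wald test called 14 genes, none of the 42 among them. The median log2 fold change was -0.07. For 13 of the 42 genes the 3 KO libraries lay on 1 side of both control libraries, 12 lower and Fabp4 higher. Of all genes 22.4% did so, 10.1% lower and 12.3% higher. Of the 12, Pdk4 differed most, at 106 and 70.0 CPM in M44 and M45 and 35.9, 68.1 and 64.9 CPM in M149, M150 and M34. Its log2 fold change was -0.64 (95% interval -1.48 to 0.19). Hadha was at 1286 and 1193 CPM in the control and 758, 1048 and 972 CPM in the KO libraries, a log2 fold change of -0.42 (95% interval -1.14 to 0.29). M149, whose Lyz2 level was far above those of the other KO libraries, was the lowest naive library for both genes. The response to MI differed between genotypes for 0 of the 42 genes and 0% of all genes by edgeR's interaction test. Hadha had the largest difference, 1.09 (standard error 0.43, adjusted p = 0.558 by the same test with Benjamini-Hochberg adjustment), with an unadjusted p of 0.0296, the 1 value under 0.05 among the 42, where 1226 of all genes had one. The DESeq2 Wald test of the interaction called 54 genes and 0 of the 42.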

How the data were processed

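Stranded mRNA libraries were made from left ventricle. The submitters' processing notes name cutadapt 1.13, STAR, HTSeq 0.6.1p1, DESeq2 1.14.1 and mm10. The authors deposited raw read counts per Ensembl gene, not normalized; the strand setting of the counting is not given in the sources used here. Of 25006 gene identifiers, 24991 were matched to GENCODE M21 (GRCm38). Counts were scaled by TMM, filtered with filterByExpr and tested with edgeR 4.0.16 (glmQLFit, glmQLFTest, R 4.3.3) in 1 fit of all 11 libraries by group, with Benjamini-Hochberg adjustment across 14779 genes and a threshold of 0.05. The comparisons share groups and are not independent. Nothing says how the mice were raised or processed together. The p-values therefore set a difference against the spread between these samples alone, estimated within groups and shared by all groups. Intervals are 95% intervals from the t distribution of the fit, with the spread of a gene shared by all groups. On the cardiomyocyte scale, library size was the summed count of 14 markers. Levels per length are CPM per kb of exon. All 42 genes are named, and of the other pathway genes Cd36, Slc25a20 and the 3 highest and 3 lowest called in control mice. The genes and lists were chosen with earlier results of these data known. The tests were tried on simulated counts in which 200 of 14779 genes were changed. For MI in control mice they recovered 10 at 2-fold and 152 at 4-fold, with 0 and 5 false calls. For genotype in MI hearts they recovered 51 and 166, with 2 and 13 false calls. In the data 50.4% of all genes were called for MI in control mice, far more than the simulation changed. The adjusted threshold was therefore looser there, and the simulated recovery for MI does not carry over to it. Alternatives were DESeq2 1.42.0, other scalings, filters, thresholds and lengths, and each library left out. Lung markers summed to at most 2.16 CPM and red cell markers to 309 to 4383 CPM.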

Additional observations from a re-analysis of the deposited data

How the results depend on the processing

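Over all alternatives run apart from the cardiomyocyte scale, 35 to 39 of the 42 genes were called in control mice and 36 to 40 in KO mice, each within 1.5 times the value given above, and 0 were called between genotypes or for the interaction. Of all genes, 50.4% in control and 57.6% in KO mice were called with the main settings. The shares under the alternatives are not given here. The median log2 fold change of the 42 genes stayed negative for MI in both genotypes. Single genes changed as follows. For Slc27a1, which was not called in control mice, adjusted p was 0.0412 with DESeq2 size factors in edgeR, 0.0347 by the DESeq2 Wald test and 0.0194 after removal of the length trend. Acsl4 in KO mice turned to -0.024 on the log2 scale after removal of the length trend, and ran from -0.0089 to 0.530 when each library was left out. With the longest transcript in place of all exons as the length, the mean ratio of Cpt1b to Cpt1a was 12.3 in naive control and 12.6 in naive KO mice, against 18.8 and 19.2. Between MI groups, Fabp4 ran from -0.90 to 0.14, and in the interaction from -1.03 to 0.039, when each library was left out, and both turned positive without M006. On the cardiomyocyte scale, 5 to 11 genes were called higher in control mice when each library was left out, with 5 without M45. The cause of these changes was not tested. With 2 or 3 libraries a group, one library decided several calls, named beside the genes, and levels under the floor of 3 counts cannot be told from 0. No paired analysis was possible because the labels give the mice numbers that no 2 groups share.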
